A study of Mus musculus with 22 samples.

Results

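The 10 genes described here encode the pore-forming subunits of the AMPA receptor (Gria1, Gria2, Gria3 and Gria4) and of the NMDA receptor (Grin1, Grin2a, Grin2b, Grin2c, Grin2d and Grin3a). They were taken by symbol from a table of 55385 genes, and all 10 passed the filter on low counts in every comparison. The libraries came from hippocampus (HIP) and entorhinal cortex (EC) of male mice aged 5 to 6 months, 5 wild type (wt) and 6 Ts66Yah, so that each animal gave 1 library per region and 22 libraries in all. Ts66Yah mice model Down syndrome: they carry a freely segregating minichromosome with an extra copy of the distal part of mouse chromosome 16 (Mmu16), from which the centromeric Mmu17 piece of the parental Ts65Dn minichromosome was removed with CRISPR/Cas9. The line goes back to 1 founder, and both genotypes shared a mixed B6C3B background, the wt mice being littermates without the minichromosome. None of the 10 genes lies in the triplicated segment. Grin2a is on Mmu16 but ends 74.7 Mb before that segment begins, and Gria3 is on the X chromosome.

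AMPA and NMDA receptors are glutamate-gated cation channels assembled from subunits of their own family, and they carry most of the fast excitatory transmission of the HIP and EC. AMPA receptors open and close quickly, and the GluA2 subunit, encoded by Gria2, makes them nearly impermeable to calcium after its transcript has been edited. NMDA receptors need GluN1, the product of Grin1, together with GluN2 or GluN3 subunits. They are blocked by magnesium at rest, and the GluN2 subunit sets how slowly they close. Hippocampal plasticity at these receptors has long been studied in mouse models of Down syndrome. The genotype comparison asks only whether transcript levels of the subunit genes differ, and the comparison of HIP with EC asks how these levels differ between regions. Neither measures receptor protein, receptor assembly or plasticity.

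The AMPA subunits and the GluN1 and GluN2 subunits differ at a residue of the pore, that of the edited codon of Gria2 and those aligned to it. The coding sequence around that codon is shown because the subunits are set apart there and because it limits what a gene count can say about Gria2. It was read from GENCODE M21 (GRCm38), 30 bases for each gene shown, 5′ to 3′ on the coding strand with the pore codon in capitals. The codon of Gria1 lies at chr11:57243094-57243096 on the plus strand and that of Gria2 at chr3:80706911-80706913 on the minus strand, both in coding exon sequence, in exon 11 of 16 of the transcript used. Those of Grin1 at chr2:25297386-25297388, Grin2a at chr16:9653561-9653563 and Grin2c at chr11:115253863-115253865 are on the minus strand.
Gria1: ggggccttcatgCAGcaaggatgtgacatt
Gria2: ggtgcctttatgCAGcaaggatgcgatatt
Gria4: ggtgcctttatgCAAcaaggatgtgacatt
Grin1: ggcgtcctgctcAACtctggcattggggaa
Grin2a: ggcctggtcttcAACaattctgtgcccgtc
Grin2c: gcactggtcttcAACaactctgttcccatc

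The AMPA codons shown encode glutamine and the NMDA codons asparagine. In Gria2 the adenosine of this glutamine codon is the known target of the editing enzyme ADARB1, and the edited codon reads as arginine. A count per gene adds edited and unedited transcripts together, so every Gria2 value below is for both.

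Because the subunits are related, the 50-base reads could in principle be shared between them. Of all the 50-base stretches in the longest coding transcript of each gene, 7 of 10322 in Gria2 and 1 of 5392 in Gria4 also occurred in a Gria3 transcript, and none was shared between any other members. Shared sequence lay elsewhere. Grin2a shared 14.3% of its stretches with other genes, nearly all of them with its processed pseudogene Gm7328, which held 14 to 107 counts per library against 5452 to 19118 for Grin2a. Grin1 shared 19.5% with Grin1os and Grin2d shared 9.29% with Gm45441, both transcribed from the opposite strand. The strand setting of the counting is not given in the sources used here, and without strand such reads cannot be told apart. Grin2d had 239 to 497 counts per library beside 33 to 194 of Gm45441, and Grin1 had 7819 to 17517 beside 28 to 266 of Grin1os. The counts of these partners and of Gm7328 do not show how many shared reads may have been counted for neither gene. What shared reads do to the levels per kb and the shares below was not tested.

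Total counts ranged from 25.9 M to 50.1 M reads per library, with a median of 34.7 M. Values are given as CPM, counts scaled to a common library total corrected by TMM factors. The counts of the 10 genes spanned 239 to 57408 per library. Regional markers followed the labels: the 6 hippocampal markers were all lower in EC than in HIP in both genotypes, and 5 of the 6 cortical markers were higher. Libraries also differed in how far genes with GC-rich transcripts stood above AT-rich ones. This GC tilt, the log2 difference between the fifth of genes with the highest and the fifth with the lowest GC content relative to the region's mean, ran from -0.308 to 0.330 in wt EC, a wider range than the -0.146 to 0.148 of Ts66Yah EC, the -0.162 to 0.176 of wt HIP and the -0.137 to 0.0253 of Ts66Yah HIP. It touches these genes because their longest transcripts run from 36.8% GC in Gria2 to 65.0% in Grin2d. Reads from bulk tissue do not separate fewer cells of a type from less RNA per cell.

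Between genes, levels can be compared only per length of transcript. Per kb of merged exons, Gria1 had the highest level of the 10 genes in all 4 groups, at 188 ± 7.004 CPM per kb in wt HIP (SD, n = 5) and 64.6 ± 3.94 in wt EC (n = 5). Gria2 came next in every group, with 57.2 ± 3.52 CPM per kb in wt HIP and 36.9 ± 4.75 in wt EC. Grin2d was the lowest in every group, at 1.33 ± 0.297 CPM per kb in wt HIP and 1.62 ± 0.299 in wt EC. In wt HIP the ranges of Grin1 and Grin2b overlapped, as did those of Gria3 and Grin2a, and all other neighbours in the order were apart. In wt EC the order was less distinct. From Gria2 over Gria3, Grin1 and Grin2b to Gria4 each range overlapped with the next, as did those of Grin2a with Grin2c and of Grin2c with Grin3a, whereas Gria1 and Gria2, Gria4 and Grin2a, and Grin3a and Grin2d were apart. The order below Gria1 also depends on the length used. Per kb of the longest coding transcript, Grin1 stood in the second place in wt EC, with 66.9 CPM per kb beside the 70.3 of Gria1, and their ranges overlapped. By that length Gria2 lost its place in EC. It came 4th in wt EC, at 55.3 CPM per kb after the 59.2 of Gria3, and 3rd in Ts66Yah EC, at 58.3.

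Between HIP and EC, genes of both receptor families differed. Gria1, whose GluA1 subunit is inserted into hippocampal synapses during potentiation, and Gria2 were lower in EC, while Gria3 and Gria4, whose GluA4 subunit is typical of parvalbumin interneurons and of early development, were higher there. Among the NMDA subunits Grin2a was lower in EC and Grin3a higher, and Grin1 did not pass the test. In wt mice 6 of the 10 genes passed an adjusted p of 0.05 in edgeR, 3 higher in EC and 3 lower. With the animal as a block 8 passed, Grin2b and Grin2d being added (53.3% of all genes), and with GC correction and that block 10 (56.7%). In the fit without the block, over all 17935 genes tested 47.7% passed, 23.4% higher and 24.3% lower, so that a call between regions was common to many genes. In Ts66Yah mice 8 of the 10 genes passed, 4 in each direction, with 54% of 18043 genes passing, 26.4% higher and 27.5% lower, and the count was 8 with the block as well. The median absolute log2 difference over the 10 genes was 0.48 in each genotype, and that over all genes tested 0.30 in wt and 0.29 in Ts66Yah mice.

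**Figure D1:**
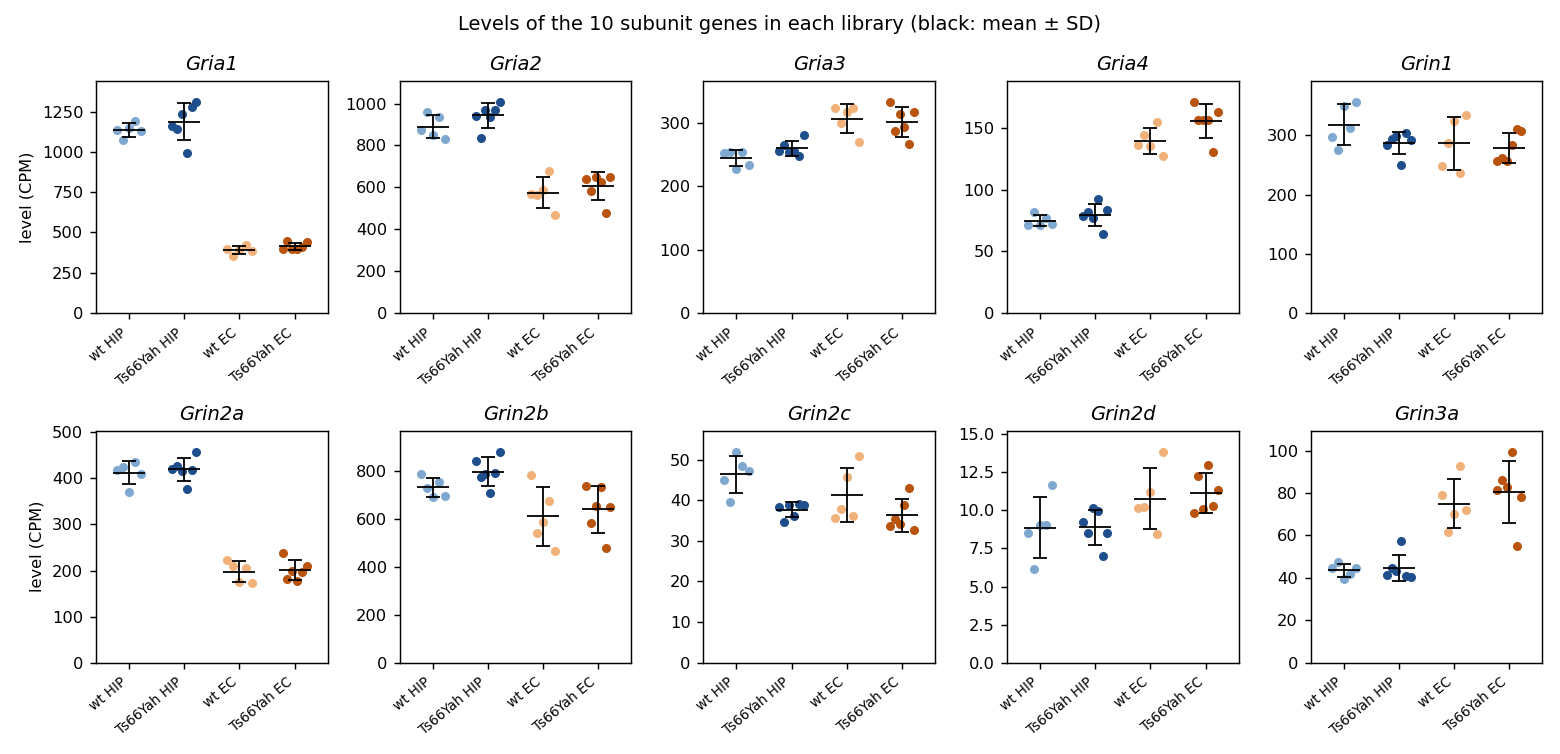
Level of each subunit gene in CPM (linear axis from 0) in every library of the 4 groups. Points are libraries and black bars are the mean ± SD (n = 5 for wt, n = 6 for Ts66Yah). Gria1, Gria2, Gria4 and Grin2a are separated by region in both genotypes, and Grin2c in HIP is the gene whose wt and Ts66Yah libraries do not overlap.

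Gria1 showed the largest difference. Its level was 1138, 1072, 1148, 1190 and 1133 CPM in the 5 wt HIP libraries and 396, 355, 393, 421 and 387 CPM in wt EC. In Ts66Yah HIP it ran from 996 over a median of 1197 to 1310 CPM, and in Ts66Yah EC from 395 over 403 to 447 CPM. No EC library came near the lowest HIP library. The log2 difference, EC minus HIP, was -1.52 in both genotypes (SE 0.060 in wt and 0.068 in Ts66Yah), a level in EC of 0.348 times that in wt HIP, with edgeR adjusted p-values of 1.25e-09 and 4.88e-10. All 11 animals had less Gria1 in EC.

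Gria2 was at 876, 958, 849, 936 and 832 CPM in wt HIP and at 570, 564, 588, 676 and 469 CPM in wt EC. The Ts66Yah libraries ran from 836 to 1007 CPM in HIP, with a median of 955, and from 478 to 651 CPM in EC, with a median of 632. The regions were apart in both genotypes, by -0.62 in wt (SE 0.090, adjusted p = 0.000102) and -0.64 in Ts66Yah (SE 0.071, adjusted p = 2.77e-06) on the log2 scale. Replicate 5 was the lowest EC library in each genotype, and these were the EC libraries with the highest GC tilt of their group, 0.330 and 0.148. With GC correction and the animal as a block the difference was -0.57 in wt and -0.59 in Ts66Yah mice.

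Gria4 moved the other way. Its wt levels were 71.7, 81.9, 71.1, 76.6 and 72.1 CPM in HIP and 136, 144, 135, 155 and 127 CPM in EC. In Ts66Yah mice it ran from 63.9 to 92.1 CPM in HIP, around a median of 80.0, and from 130 to 171 CPM in EC, around 156. Every EC library was above every HIP library. The log2 difference was 0.92 in wt (SE 0.069, adjusted p = 3.75e-07) and 0.97 in Ts66Yah mice (SE 0.078, adjusted p = 1.10e-07). Gria3 was higher in EC by a smaller amount, 0.35 in wt (SE 0.068, adjusted p = 0.000983) and 0.21 in Ts66Yah mice (SE 0.052, adjusted p = 0.00279). It ranged from 228 to 254 CPM in wt HIP and from 270 to 324 in wt EC, with overlap in the Ts66Yah libraries, where HIP reached 282 and EC began at 267 CPM. All 11 animals had more Gria3 and more Gria4 in EC.

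Grin2a encodes GluN2A, which shortens NMDA currents and gains on GluN2B as the forebrain matures. It was at 419, 426, 370, 435 and 409 CPM in wt HIP and at 223, 211, 174, 205 and 172 CPM in wt EC, and at 378 to 458 against 178 to 238 CPM in Ts66Yah mice, with medians of 420 and 197. HIP and EC did not overlap in either genotype. The log2 difference was -1.04 in wt (SE 0.087, adjusted p = 9.55e-07) and -1.07 in Ts66Yah mice (SE 0.066, adjusted p = 1.01e-08), so the level in EC was 0.485 and 0.477 times that in HIP.

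Grin3a, whose GluN3A subunit lowers calcium permeability and magnesium block, had the opposite pattern. Its wt levels were 44.4, 47.3, 39.2, 41.8 and 44.6 CPM in HIP and 78.8, 61.6, 70.0, 92.6 and 72.1 CPM in EC. In Ts66Yah HIP it ran from 40.4 over a median of 42.3 to 57.1 CPM and in Ts66Yah EC from 54.8 over 82.0 to 99.4 CPM. A single HIP library, that of Ts66Yah replicate 4, lay above the lowest EC library, that of replicate 5. The log2 difference was 0.81 in wt (SE 0.103, adjusted p = 3.33e-05) and 0.85 in Ts66Yah mice (SE 0.119, adjusted p = 3.00e-05), and all 11 animals had more Grin3a in EC.

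Grin2b and Grin2d passed in Ts66Yah mice but not in wt mice. Grin2b, encoding the slow GluN2B subunit, had a log2 difference of -0.32 in Ts66Yah mice (SE 0.089, adjusted p = 0.00738) and of -0.24 in wt mice, where the 95% interval ran from -0.50 to 0.02 (adjusted p = 0.121). Its wt EC libraries were widely spread, at 783, 539, 586, 675 and 466 CPM, against 690 to 786 CPM in wt HIP. Grin2d, found mostly in interneurons in the forebrain, was higher in EC by 0.32 in Ts66Yah mice (SE 0.101, adjusted p = 0.0147) and by 0.30 in wt mice, with an interval from -0.05 to 0.65 (adjusted p = 0.148). It was the lowest of the 10 genes, with 6.12 to 11.7 CPM in wt HIP and 8.43 to 13.9 CPM in wt EC. With the animal as a block both genes passed in wt mice as well, Grin2b at an adjusted p of 0.0182 and Grin2d at 0.0370. Without wt replicate 1 Grin2b passed also without the block (adjusted p = 0.0355), and without Ts66Yah replicate 2 or 6 Grin2d no longer passed in Ts66Yah mice (adjusted p = 0.0606 and 0.0505). The difference between genotypes in these effects was tested as an interaction and is given below; neither gene passed it.

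Grin1, the obligatory subunit, and Grin2c, which in adult forebrain is found in astrocytes and some interneurons, did not pass in either genotype. The log2 difference of Grin1 was -0.13 in wt (95% interval -0.35 to 0.08) and -0.04 in Ts66Yah mice (-0.18 to 0.10). Grin1 levels were 297, 276, 350, 312 and 356 CPM in wt HIP and 249, 288, 325, 236 and 335 CPM in wt EC, so the regions overlapped throughout. For Grin2c the difference was -0.15 in wt (-0.37 to 0.07) and -0.05 in Ts66Yah mice (-0.20 to 0.10). With GC correction and the animal block together both passed in wt mice, Grin1 at -0.13 (adjusted p = 0.0257) and Grin2c at -0.13 (adjusted p = 0.0484), but not in Ts66Yah mice (adjusted p = 0.288 and 0.282).

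**Figure D2:**
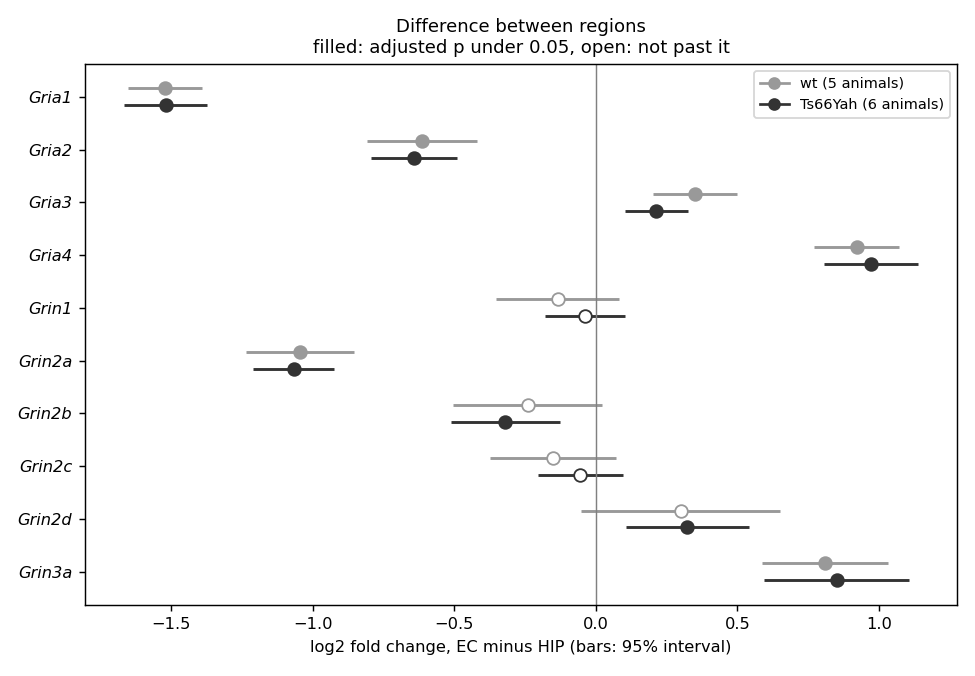
Log2 fold change of each subunit gene, EC minus HIP, in wt (grey) and Ts66Yah (black) mice from edgeR. Bars are 95% intervals, filled points passed an adjusted p of 0.05 and open points did not. Gria1, Gria2 and Grin2a lie to the left (lower in EC) and Gria3, Gria4 and Grin3a to the right in both genotypes.

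Marker levels of several cell types and tissues differed between the regions too. The summed level of the 5 oligodendrocyte markers was 6835 to 10171 CPM in the HIP libraries and 1272 to 3260 CPM in the EC libraries, and all 5 were lower in EC in both genotypes. The 6 choroid plexus markers summed to between 113 and 3344 CPM in HIP and between 9.16 and 40.9 CPM in EC, and all 6 were lower in EC. Markers of striatum summed to 65.0 to 83.5 CPM in HIP and 156 to 297 CPM in EC, with 5 of 7 higher in EC in wt and 4 of 7 in Ts66Yah mice. The 5 microglial markers were higher in EC, with sums of 237 to 324 CPM in HIP and 295 to 389 CPM in EC. For GABAergic neurons, the sum of 6 markers was 727 to 889 CPM in HIP and 870 to 1024 CPM in EC, with 2 of 6 higher in EC in wt and 3 of 6 in Ts66Yah mice. Vip had the largest log2 difference, at 1.74 in wt and 1.72 in Ts66Yah mice. Pvalb, the parvalbumin gene, at -0.04 and 0.08, and Gad1, at 0.03 and 0.04, did not pass in either genotype. Of the 4 endothelial markers 3 were higher in EC in each genotype (sums of 114 to 130 CPM in HIP and 122 to 181 CPM in EC). Thalamic markers, of which 3 of 4 were tested and 2 in wt and 1 in Ts66Yah mice were lower in EC, summed to 35.7 to 69.4 CPM in HIP and 11.3 to 16.9 CPM in EC. The 5 astrocyte markers moved both ways, 2 higher and 1 lower in EC in wt and 2 and 2 in Ts66Yah mice. The 4 markers of glutamatergic neurons, with 1 higher and 1 lower in each genotype, had nearly equal sums in the regions, with medians from 6880 to 7003 CPM in the 4 groups, and none of the markers of any list was at 0 throughout a group. By genotype no marker of any list passed the test in either region. What part these differences have in the subunit values was not tested.

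As shares of the summed level of their family, per kb of merged exons, the AMPA subunits were rearranged between regions. Gria1 made up 66.7% ± 1.69 of the AMPA total in wt HIP (SD, n = 5) and 41.8% ± 2.07 in wt EC. Gria4 went from 4.21% ± 0.269 to 14.3% ± 0.696 and Gria3 from 8.79% ± 0.399 to 20.1% ± 0.779, and in both cases the ranges of the regions were apart. The share of Gria2 was 20.3% ± 1.12 in wt HIP and 23.7% ± 1.57 in wt EC, although its level was lower in EC. With the longest coding transcript as the length, the share of Gria1 was 58.3% in wt HIP and 33.5% in wt EC.

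Within the NMDA family, Grin2a made up 23.2% ± 1.69 of the total in wt HIP and 13.6% ± 1.70 in wt EC, and Grin3a 3.57% ± 0.335 and 7.55% ± 1.19. Grin1 and Grin2b held the largest shares in wt mice in both regions, at 33.0% ± 2.89 and 29.7% ± 1.95 in HIP and at 36.5% ± 5.62 and 30.3% ± 5.58 in EC. Their shares by region overlapped. Grin1 is needed in every NMDA receptor, and its share in wt HIP was 49.5% with the longest coding transcript as the length. Its share thus moved more with the length chosen than with the region.

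**Figure D3:**
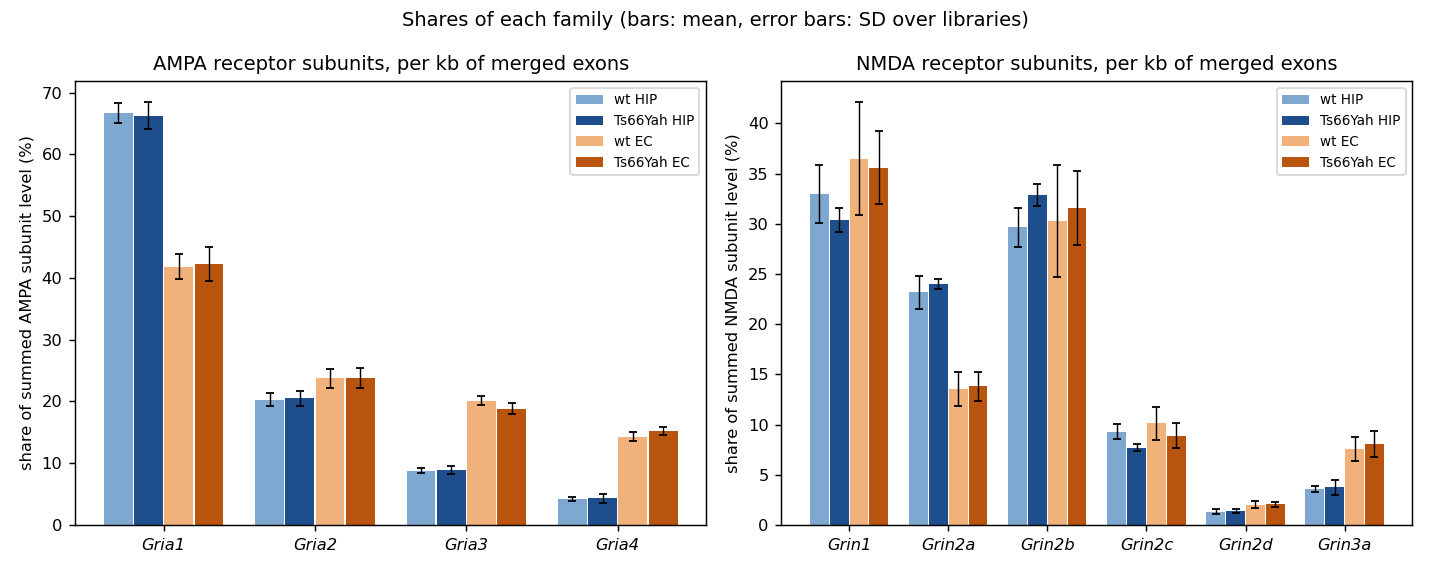
Share of each subunit gene in the summed AMPA (left) or NMDA (right) subunit level, in percent, per kb of merged exons. Bars are group means and error bars SDs over libraries (n = 5 for wt, n = 6 for Ts66Yah). Gria1 takes 66.7% in wt HIP and 41.8% in wt EC, and Grin2a 23.2% and 13.6%.

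Ratios of subunits within a library do not depend on its total count, and 3 ratios per kb of merged exons were compared. Their values depend on the length used for each gene, whereas their differences between groups do not. Gria1 to Gria2, the ratio of the main hippocampal AMPA subunits, had a log2 value of 1.72 ± 0.11 in wt HIP (SD, n = 5) and 0.82 ± 0.16 in wt EC, and of 1.69 ± 0.13 and 0.82 ± 0.19 in Ts66Yah mice (n = 6). Grin2a to Grin2b was at -0.36 ± 0.07 in wt HIP and -1.14 ± 0.20 in wt EC, and at -0.45 ± 0.05 and -1.19 ± 0.24 in Ts66Yah mice. Grin3a to Grin1 was at -3.21 ± 0.24 in wt HIP and -2.27 ± 0.41 in wt EC, and at -3.03 ± 0.28 and -2.15 ± 0.37 in Ts66Yah mice.

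Taken within animals, all 3 ratios differed between regions. EC minus HIP was -0.88 ± 0.14 for Gria1 to Gria2, -0.76 ± 0.21 for Grin2a to Grin2b and 0.91 ± 0.36 for Grin3a to Grin1 (mean and SD over 11 animals). The direction was the same in 11 of 11 animals for each ratio. An exact two-sided sign-flip permutation test gave p = 0.000977 for each, the smallest value that 2048 arrangements allow, and 0.00293 after adjustment over 9 comparisons by region. Within the 5 wt animals the test could not go below its p of 0.0625, which each ratio had, and within the 6 Ts66Yah animals each reached the smallest p, 0.03125 (adjusted 0.0469).

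**Figure D4:**
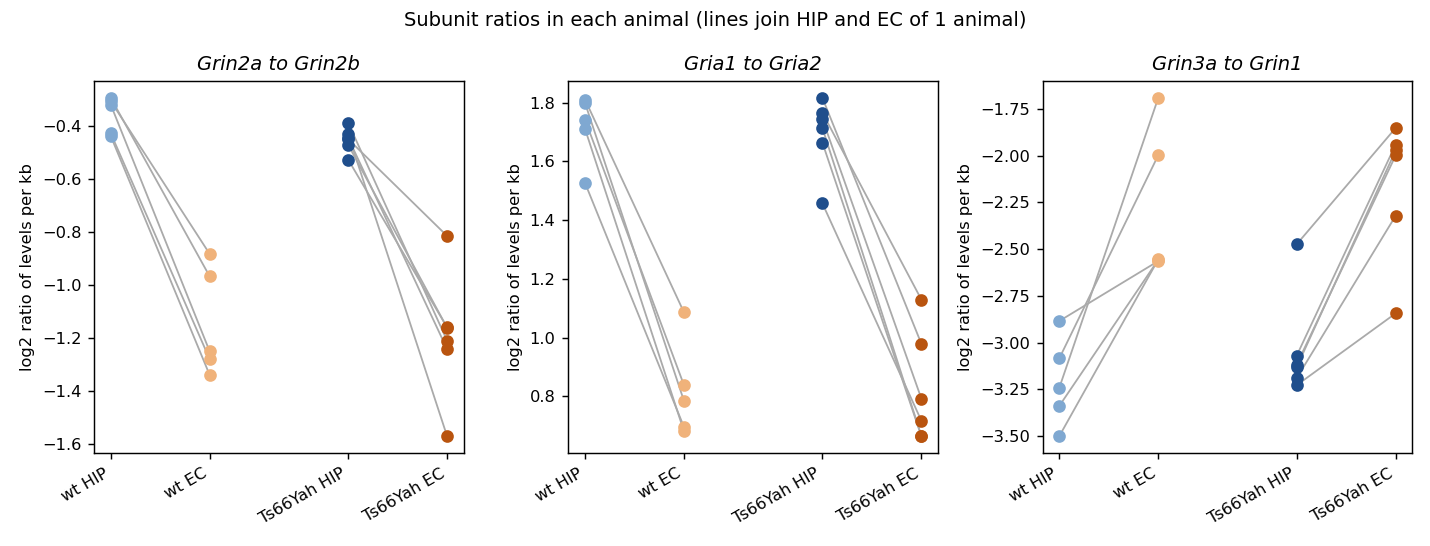
Log2 ratio of 3 pairs of subunits, per kb of merged exons, in each animal. Lines join the HIP and EC library of 1 animal, with wt animals on the left and Ts66Yah animals on the right of each panel. Grin2a to Grin2b and Gria1 to Gria2 fall and Grin3a to Grin1 rises from HIP to EC in all 11 animals.

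Between genotypes, no subunit gene passed the test in either region. In HIP, 0 of 10 genes had an adjusted p under 0.05 in edgeR, while 109 of 18452 genes did (0.591%), and 2 of the 10 had an unadjusted p under 0.05, as had 2188 of all genes (11.9%). DESeq2 called 1 of the 10 and 2.06% of the genes it tested, and limma 0 of the 10 and 0.602%. In EC it was 0 of 10, with 50 of 17658 genes passing (0.283%), and 0 of 10 at an unadjusted p under 0.05, the smallest being 0.0609 for Gria4, beside 6.25% of all genes. DESeq2 and limma called 0 of the 10 in EC. The log2 differences, Ts66Yah minus wt, lay between -0.29 and 0.13 in HIP and between -0.19 and 0.15 in EC. All the 95% intervals lay within -0.43 to 0.31 in HIP and within -0.41 to 0.38 in EC. The median absolute difference of the 10 genes was 0.09 in HIP and 0.06 in EC, and that of all genes tested 0.09 in each.

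Grin2c came nearest to a call. Its level was 45.0, 39.5, 51.9, 48.4 and 47.1 CPM in wt HIP and 38.4, 34.7, 38.9, 36.1, 39.1 and 38.8 CPM in Ts66Yah HIP. Every wt library was above every Ts66Yah library, by a margin of less than 1 CPM between wt replicate 2 and Ts66Yah replicate 5. Such a lack of overlap was found in 358 of the 18452 genes tested in HIP (1.94%) and, in EC, in 159 of 17658 (0.9%), none of them a subunit gene. The log2 difference was -0.29 (SE 0.063, 95% interval -0.43 to -0.16, unadjusted p = 0.000361), and the adjusted p of 0.0560 missed the threshold. It fell under it with DESeq2 (adjusted p = 0.00328) and without wt replicate 2 (adjusted p = 0.00648). The adjusted p rose to as much as 0.168 when another animal was left out, and to as much as 0.208 over the alternative settings. In EC the difference was -0.19 (interval -0.41 to 0.03, adjusted p = 0.870), and its ranges overlapped, at 35.7 to 50.8 CPM in wt and 32.5 to 43.1 CPM in Ts66Yah mice.

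Base composition and cell markers were set beside the Grin2c value. Its transcript has 62.1% GC, and the median GC tilt was 0.0543 in wt HIP and -0.0392 in Ts66Yah HIP. With GC correction the difference in HIP was -0.19 (adjusted p = 0.119). The summed level of the 5 astrocyte markers overlapped between genotypes, at 1443 to 1645 CPM in wt HIP and 1359 to 1659 CPM in Ts66Yah HIP. None of the 5 passed the test, the largest differences being -0.19 for Gja1 (adjusted p = 0.277) and 0.18 for Aqp4 (adjusted p = 0.458). Of the 6 markers of GABAergic neurons 0 passed in HIP, and 3 had an unadjusted p under 0.05, namely Sst at -0.51 (adjusted p = 0.119), Pvalb at -0.31 (adjusted p = 0.108) and Gad2 at 0.21 (adjusted p = 0.299). Their summed level was 792 to 889 CPM in wt HIP and 727 to 889 CPM in Ts66Yah HIP, and none of the 6 was at 0. The part of these cell types in the Grin2c value was not tested. Animal numbers in the labels fall into ranges, and Grin2c was lower in Ts66Yah HIP within both that hold each genotype. The difference was -0.22 in the range of lower numbers (2 wt and 2 Ts66Yah animals) and -0.37 in the next range (2 and 4 animals), with wt replicate 1 in neither. With that range as a block the adjusted p was 0.142.

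The other subunits gave smaller differences in HIP. Grin2b was at 786, 729, 690, 753 and 696 CPM in wt and from 706 over a median of 790 to 879 CPM in Ts66Yah mice, a log2 difference of 0.13 (interval 0.00 to 0.25, unadjusted p = 0.0454, adjusted p = 0.407). Grin1 differed by -0.14 (interval -0.29 to 0.00, adjusted p = 0.441) and Gria3 by 0.10 (interval 0.00 to 0.20, adjusted p = 0.442). Gria1, Gria2 and Gria4 differed by 0.07, 0.09 and 0.09, with adjusted p-values of 0.725, 0.574 and 0.679. Grin2a, Grin2d and Grin3a differed by less than 0.05 in HIP, and the sign of each of these 3 turned when a single animal was left out. In EC, Gria4 differed by 0.15 (interval -0.01 to 0.31, adjusted p = 0.819), with wt libraries at 127 to 155 CPM and Ts66Yah libraries at 130 to 171 CPM.

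**Figure D5:**
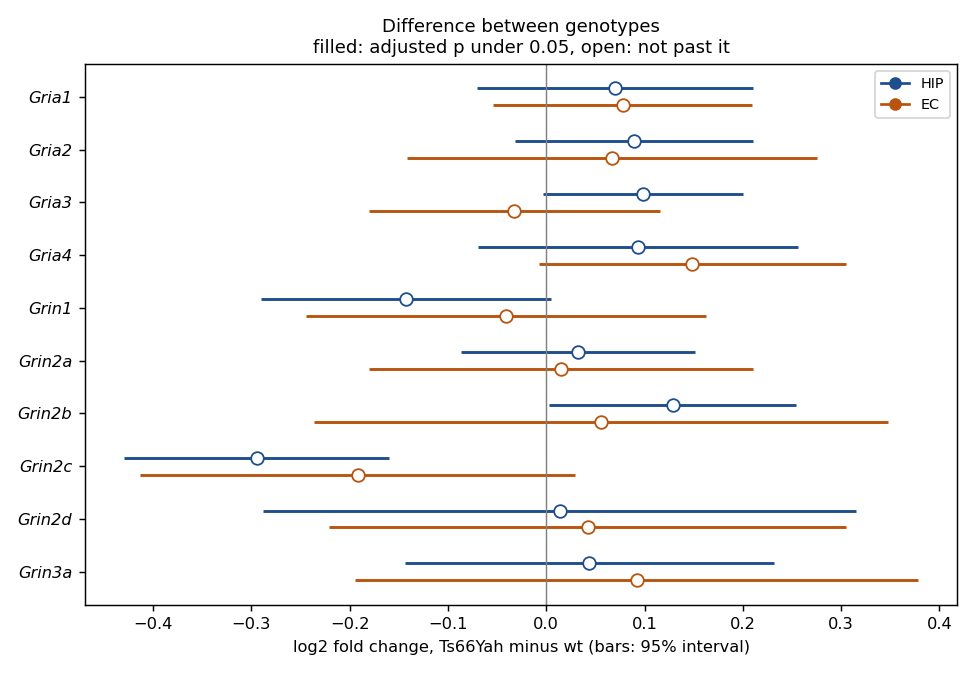
Log2 fold change of each subunit gene, Ts66Yah minus wt, in HIP (blue) and EC (orange) from edgeR. Bars are 95% intervals, and all points are open because none passed an adjusted p of 0.05. Grin2c is the furthest from 0 in both regions, at -0.29 in HIP and -0.19 in EC.

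The subunit ratios did not pass between genotypes either. Grin2a to Grin2b had a difference of -0.0945 in HIP on the log2 scale, Ts66Yah minus wt (SE of the difference 0.0364), with p = 0.0346 in an exact two-sided permutation test over 462 arrangements and 0.208 after adjustment over 6 comparisons, and the groups overlapped. The other 5 comparisons gave differences between -0.05 and 0.17, with exact permutation p-values from 0.327 to 0.939.

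The difference between the genotype effects in EC and HIP was tested as an interaction in all 22 libraries. That fit used the group means and did not pair the regions of an animal, so its intervals ignore the pairing. Of the 10 genes 0 passed, as did 0 of 19074 genes (0%). An unadjusted p under 0.05 was found in 388 of all genes (2.03%), none of them a member. The interaction estimates of the 10 genes ran from -0.13 for Gria3 to 0.10 for Grin2c, with intervals within -0.39 to 0.43. DESeq2, limma and the animal block gave 0 genes as well, with 560 (1.47%), 386 (2.02%) and 726 (3.81%) genes at an unadjusted p under 0.05.

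Proteins that assemble, anchor and modulate these receptors were described as 6 further lists. Of the 27 genes for AMPA receptor auxiliary subunits and assembly factors, 13 were higher in EC and 8 lower in wt mice, and 13 and 9 in Ts66Yah mice, with a median log2 difference of 0.14 and 0.04. Over all genes tested 23.4% were higher and 24.3% lower in wt mice, and 26.4% and 27.5% in Ts66Yah mice. The largest were Gsg1l, an auxiliary subunit (40.3 CPM in wt HIP and 148 in wt EC, log2 difference 1.90), and Shisa6, which slows receptor desensitization (207 and 23.8 CPM, -3.10). Cacng8, the TARP best known from hippocampal synapses, fell by 1.01 on the log2 scale from 94.2 to 46.1 CPM, and Cnih2, an export factor for AMPA receptors, fell by 1.04 from 242 to 116 CPM. In the other direction, Olfm2 rose by 1.63 from 46.1 to 140 CPM and Olfm3 by 1.44 from 29.2 to 78.0 CPM. Each gene named here had an adjusted p under 0.05 in both genotypes.

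Among 15 scaffolds of the postsynaptic density, 8 were higher in EC and 2 lower in each genotype, with a median of 0.28 in wt and 0.17 in Ts66Yah mice, beside 47.7% and 54% of all genes that passed in either direction. Homer1 was higher by 0.77 in wt mice (adjusted p = 0.00143) and Dlg1, which binds GluA1, by 0.75 (adjusted p = 1.26e-05). Homer3, at 38.1 CPM in wt HIP and 3.76 in wt EC, had a log2 difference of -3.32 (adjusted p = 1.08e-09). Of the 12 NMDA receptor modulators and CaMKII genes 11 were tested, of which 3 were higher and 4 lower in EC in wt mice and 3 and 5 in Ts66Yah mice, with the same shares of all genes as background. Camk2d had 41.0 CPM in wt HIP and 221 in wt EC (2.45, adjusted p = 3.74e-09), whereas Camk2b, the synaptic beta isoform, fell by 0.89 on the log2 scale from HIP to EC (adjusted p = 4.63e-08). Ptk2b fell by 0.75 (adjusted p = 2.57e-07) and Neto1, an auxiliary protein of NMDA and kainate receptors, by 0.57 (adjusted p = 0.00088). Ptpn5 and Camk2g were higher in EC by 0.51 and 0.31 in wt mice (adjusted p = 1.27e-05 and 0.00751).

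Other ionotropic glutamate receptor genes, 7 in number, had 4 higher and 2 lower in EC in wt and 3 and 2 in Ts66Yah mice, where 47.7% and 54% of all genes passed. In wt mice the log2 difference was 1.08 for Grik3 and -1.34 for Grik4 (adjusted p = 8.28e-05 and 1.11e-06). Of the 8 genes for glutamate supply and uptake, 3 were higher and 2 lower in wt and 4 and 2 in Ts66Yah mice, against the same background. Slc17a7, the main cortical vesicular glutamate transporter, was higher in EC by 0.44 (adjusted p = 0.0036). Of 3 editing enzymes, Adar was higher in EC in wt mice, with a log2 difference of 0.38, and Adarb2, a brain-specific member without known editing activity, was lower, with -0.87. Adarb1, which edits Gria2, was lower in EC in both genotypes. It passed in Ts66Yah mice, with -0.23 (adjusted p = 0.00197). In wt mice the difference was -0.17, with an unadjusted p under 0.05 in edgeR, and it did not pass. In the interaction of genotype and region 0 of the 3 enzymes had an unadjusted p under 0.05.

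By genotype these lists held a single call in edgeR. Grik1, a kainate receptor subunit gene that does lie in the triplicated segment, was at 14.2 ± 1.59 CPM in wt HIP and 19.7 ± 1.94 CPM in Ts66Yah HIP, 1.40 times as high (log2 difference 0.48, SE 0.088, adjusted p = 0.0220). The other 5 lists had 0 calls in HIP, with 2, 4, 1, 2 and 0 of their genes at an unadjusted p under 0.05 for the auxiliary subunits, scaffolds, modulators, glutamate supply and editing enzymes, beside the 11.9% of all genes in HIP. In EC all 6 lists had 0 calls, with 2 auxiliary subunit genes and 1 of the other ionotropic receptor genes at an unadjusted p under 0.05, beside 6.25% of all genes in EC. DESeq2 called 1 auxiliary subunit gene more in each region, Frrs1l in HIP and Gsg1l in EC, which are named here after their values were seen. By limma the calls in the lists were those of edgeR.

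Each subunit gene was also matched to the gene whose centred log2 CPM profile over the 22 libraries differed least from its own, among 19073 others. The root mean square difference was 0.117 for Gria1 and Lats2, 0.084 for Gria2 and Ogt, 0.057 for Gria3 and Prune2 and 0.095 for Gria4 and Cd200. Among the NMDA genes it was 0.060 for Grin1 and Ncln, 0.105 for Grin2a and Zeb2, 0.092 for Grin2b and Mycbp2, 0.10 for Grin2c and Ppp4c, 0.137 for Grin2d and Sema6b and 0.118 for Grin3a and Cmtm4. The median difference to all other genes ran from 0.327 for Grin1 to 0.810 for Gria1, whose own root mean square spreads were 0.157 and 0.770. The nearest gene lies below that median by construction, and the profiles hold the difference between regions. No member had another member as its nearest gene, and the profiles share libraries, depth and base composition.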

How the data were processed

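RNA-Seq was analysed from 22 libraries, HIP and EC of 5 wt and 6 Ts66Yah males. The authors deposited raw counts per gene from HTSeq after alignment of 50-base single-end reads with Hisat2 to GRCm38 with Ensembl annotation; versions and the strand setting are not given in the sources used here. The submitters' processing notes name bcl2fastq 2.17.1.14, DESeq2 and mm10. The labels describe a stranded polyA kit, and the methods also name a ribosomal depletion kit. The deposited tables of the authors' own comparisons (fold changes and p-values) were not used, and 0 columns of the count table lacked a sample. Of 55385 identifiers 55144 matched GENCODE M21, which gave symbols, positions, lengths and GC content.

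Counts were filtered with filterByExpr, scaled by TMM and tested over all genes with edgeR 4.0.16 (quasi-likelihood, R 4.3.3), with Benjamini-Hochberg adjustment and a threshold of 0.05. The fit used the libraries of the groups compared, and all 22 for the interaction. Log2 CPM used a prior count of 2. Intervals are 95%. Ratios used exact permutation tests. DESeq2 1.42.0, limma 3.58.1 (voom), other scaling and filters, blocks, leaving out each animal and, chosen after the data were seen, GC correction by a lowess trend over 50 bins were alternatives. The steps were tested on simulated data. The samples of a group are separate animals, and no libraries were alike within sampling noise (chi-square per gene at least 9.62).

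HIP and EC libraries pair by the animal number in the labels, and their deviations correlated at 0.206 to 0.454 in wt and 0.262 to 0.410 in Ts66Yah mice. Members and lists were chosen with earlier results of these data known. Named were the 10 members, the nearest gene of each member, and markers of lists that differed. The list genes named were among the up to 3 called genes of largest size in each direction per comparison.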

Additional observations from a re-analysis of the deposited data

Results flagged for a closer look

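Of the 40 groups of values (10 genes in 4 groups), 3 held a library whose gap to its nearest neighbour was large for the group's range by Dixon's criterion. Chance alone gives about 1 in 20 for independent groups, and these groups share libraries. Grin3a in Ts66Yah HIP had a highest value of 57.1 CPM in replicate 4, with the next library at 44.4 CPM and the lowest at 40.4 CPM. Grin1 in the same library was the lowest of its group at 251 CPM, with the next at 284 and the highest at 303 CPM. Gria4 in Ts66Yah EC had its lowest value, 130 CPM, in replicate 5, with the next at 156 and the highest at 171 CPM. Replicate 4 had the lowest GC tilt of Ts66Yah HIP (-0.137) and replicate 5 the highest of Ts66Yah EC (0.148). The part of base composition in these values was not tested. Without Ts66Yah replicate 4 the genotype difference of Grin3a in HIP went from 0.04 to -0.04 on the log2 scale, and neither value passed the test.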

How the results depend on the processing

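The region differences kept their direction and call under every alternative for Gria1, Gria2, Gria3, Gria4, Grin2a and Grin3a. The count of subunit genes that differed between regions in wt mice was 6 in edgeR, 8 with the replicate block by animal and 10 with GC correction and that block, and it ran from 6 to 7 when an animal was left out. In Ts66Yah mice it was 8, with a range of 7 to 8. In HIP the count by genotype was 0, 1 with DESeq2, and 0 to 1 when an animal was left out (1 without wt replicate 2), and in EC it was 0 throughout. The interaction stayed at 0. The causes were not tested.

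Differences near 0 changed sign without passing the test. By genotype, Grin2d in HIP was -0.050 when animals were blocked by number range, and Grin1 and Grin2a in EC were 0.020 and -0.0034 with GC correction. When an animal was left out, the genotype difference in HIP ran from -0.0078 to 0.061 for Grin2a, -0.096 to 0.14 for Grin2d and -0.041 to 0.077 for Grin3a. In EC it ran from -0.0020 to 0.15 for Gria2, -0.092 to 0.016 for Grin1, -0.035 to 0.077 for Grin2a, -0.031 to 0.18 for Grin2b and -0.023 to 0.14 for Grin2d. The region difference of Grin1 in Ts66Yah mice ran from -0.079 to 0.00040. Among the ratios by genotype, Gria1 to Gria2 ran from -0.053 to 0.075 in EC and -0.072 to 0.023 in HIP, and Grin2a to Grin2b from -0.12 to 0.027 in EC.

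By region in Ts66Yah mice the ratios kept their direction when an animal was left out, at -0.91 to -0.83 for Gria1 to Gria2, -0.82 to -0.66 for Grin2a to Grin2b and 0.82 to 0.98 for Grin3a to Grin1, where 5 animals cannot give a p under 0.0625. In wt mice an exact test without pairing gave -0.90, -0.79 and 0.94, each at an adjusted p of 0.00794. That value is the smallest this test allows, and the test ignores that both regions come from the same animals. Adding 1 count to the ratios changed no call.

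Wt and Ts66Yah libraries of the same replicate number are different animals, whose deviations correlated at -0.007 to 0.058 in HIP and 0.017 to 0.177 in EC, so the numbers do not pair them. With the number as a replicate block 0 of the 10 genes passed in either region, and over all genes the block moved the calls from 109 to 61 in HIP and from 50 to 39 in EC. DESeq2 gave 370 and 108 calls over all genes, the block by number range 68 in HIP, and the fit to all 22 libraries 79 in EC.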
